A study of Mus musculus with 6 samples.

Results

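Multiciliated cells carry many motile cilia, and each cilium grows from a basal body, which is a centriole. The genes described here choose that cell fate and build those centrioles: Gmnc, Mcidas, Deup1, Ccno, Plk4, Myb, Rfx2, Rfx3 and Gmnn. They were measured in whole lungs of E14.5 mouse embryos on 6 arrays. The 3 control embryos are labelled as carrying Shh-cre, and the labels do not say whether they also carried floxed alleles. The 3 mutant embryos had the genotype Shh-cre:Foxp1flox/flox:Foxp4flox/flox, so that Shh-cre, which is active in lung epithelium, removes a pair of forkhead transcription factors. Both groups share the Shh-cre allele and a mixed C57BL/6, 129X1 and 129S1 background.

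All 9 genes were found, as 10 of 28815 probe sets. The deposited table lists Gmnc, Mcidas and Deup1 under the older names Gm606, Gm6320 and Ccdc67. Gmnn had 2 probe sets and each other gene had 1. The genes were chosen by their role and, for Gmnc and Deup1 in particular, by their difference between mutant and control arrays. Their levels and differences are therefore given as a description, and their calls are counted but not read as a test. No filter on low values was applied, and the series gives no detection calls.

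As background, a progenitor enters the multiciliated fate when Notch signalling is low and Gmnc and then Mcidas are switched on. Both proteins belong to the geminin family, bind E2F factors and turn on the genes for centriole assembly, together with Myb and the RFX factors, while Foxj1 runs the motile cilium programme. A multiciliated cell no longer divides but needs many centrioles, and most of them form on deuterosomes, ring-like bodies that hold Deup1. In the mouse airway, ciliated cells become abundant after the stage studied here.

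The study compared the groups to learn how loss of Foxp1 and Foxp4 affects secretory differentiation of the lung epithelium. Array medians were 8.21 to 8.23 on the log2 scale of the RMA values, and the correlation between arrays ran from 0.9947 to 0.9985. Xist, the RNA of the inactive X chromosome, measured 12.83 in control 3 and 6.00 to 6.23 elsewhere, and the Y-linked Ddx3y measured 5.89 in control 3 and 9.45 to 10.64 elsewhere. Control 3 therefore had the pattern of a female and the other 5 that of males, and the difference of every member is also given without it. Of the deleted genes, Foxp4 fell by 0.41 on the log2 scale (SE 0.05, adjusted p by limma = 0.0190, but 0.0797 without control 2, 0.0876 without mutant 2 and 0.0535 without mutant 3) and Foxp1 had a log2 change of -0.27 (SE 0.05, adjusted p by limma = 0.0884). Foxp1 passed with a trended robust prior (adjusted p by limma = 0.0293) and with array weights (0.0127). The lung epithelial factor Nkx2-1 had a mean of 11.06 in controls and 11.11 in mutants. Control means of 32 motile ciliated cell genes ran from 5.08 for Sntn to 9.51 for Tppp3, and without detection calls it cannot be told which of them were above background.

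Promoter windows of Gmnc, Deup1, Ccno and Mcidas are shown because they can be read for the letters bound by the RFX factors among the group. RefSeq windows (GRCm38.p6, 250 bases before to 50 after a transcript start) were at hand for 8 of the 9 genes, 10 windows in all. The Gmnc window shown lies at chr16:26968196-26968495 on the minus strand and the Deup1 window shown at chr9:15627797-15628096 on the minus strand. The Ccno window lies at chr13:112987552-112987851 and the Mcidas window at chr13:112993618-112993917, both on the plus strand. Each sequence runs from 5′ to 3′ on the gene's strand. Capitals mark letters that are a part of the X-box, GTTGCCA or GTTACCA on either strand. A whole X-box was not searched for. The forkhead letters TGTTTAC or TATTTGT and the E2F letters TTTNNCGC would also be in capitals, and these 4 windows hold none. Other forkhead and E2F forms were not searched for, so nothing is said of whether these windows hold them. Gmnc and Deup1 each had another window that is not printed and held none of the marked letters. The windows of Plk4, Myb, Rfx2 and Rfx3 are not printed either. Among these, Rfx2 held X-box letters and Myb held forkhead letters.
Gmnc: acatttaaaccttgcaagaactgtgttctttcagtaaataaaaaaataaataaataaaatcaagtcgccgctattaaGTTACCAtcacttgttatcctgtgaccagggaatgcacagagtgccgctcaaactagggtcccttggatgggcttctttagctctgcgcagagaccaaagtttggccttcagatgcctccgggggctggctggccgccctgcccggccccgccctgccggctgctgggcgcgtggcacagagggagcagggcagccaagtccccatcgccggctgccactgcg
Deup1: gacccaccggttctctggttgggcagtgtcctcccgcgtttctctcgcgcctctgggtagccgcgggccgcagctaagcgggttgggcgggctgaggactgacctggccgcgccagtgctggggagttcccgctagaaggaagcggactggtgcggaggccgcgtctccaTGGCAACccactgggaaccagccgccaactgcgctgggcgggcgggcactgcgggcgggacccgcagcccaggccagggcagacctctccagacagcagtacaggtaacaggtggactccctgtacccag
Ccno: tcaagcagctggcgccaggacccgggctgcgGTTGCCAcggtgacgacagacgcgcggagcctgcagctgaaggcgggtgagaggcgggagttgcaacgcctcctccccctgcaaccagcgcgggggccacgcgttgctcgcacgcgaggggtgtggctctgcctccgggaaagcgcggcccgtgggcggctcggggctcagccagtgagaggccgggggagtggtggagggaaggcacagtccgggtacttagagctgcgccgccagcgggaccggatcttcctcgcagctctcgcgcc
Mcidas: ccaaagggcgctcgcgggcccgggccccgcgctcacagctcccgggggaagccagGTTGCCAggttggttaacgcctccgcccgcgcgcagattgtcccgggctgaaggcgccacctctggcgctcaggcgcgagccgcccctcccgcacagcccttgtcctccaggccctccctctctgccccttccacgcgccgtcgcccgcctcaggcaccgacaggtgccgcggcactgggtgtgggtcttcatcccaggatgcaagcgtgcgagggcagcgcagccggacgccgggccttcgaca

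Of the 10 windows, 5 held these X-box letters in either form, against 6.76% of the 32851 windows in the RefSeq table. These were 1 window each of Gmnc, Deup1, Ccno, Mcidas and Rfx2, while the other windows of Gmnc and Deup1 had none. The form GTTGCCA occurred in Mcidas at position -195 from the start, in Ccno at -219 and, on the opposite strand, in Deup1 at -80. Gmnc held GTTACCA at -173 and Rfx2 held it on the opposite strand at -124. For the forkhead letters TGTTTAC or TATTTGT, 1 of the 10 windows matched, that of Myb at position 34, against 7.02% of all windows. No member window held the E2F letters TTTNNCGC, which 5.17% of all windows hold. Forms of the E2F letters with another ending were not searched for. The MYB letters TAACNG or CAACNG, which overlap the X-box letters in Ccno and Rfx2, were in 7 of the 10 windows, against 49.7% of all. CCAAT was in 3 of the 10 windows, against 37.4%. A match describes the letters only and shows no binding.

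Gmnc, which starts the multiciliated programme, was the member with the largest difference. In controls 1, 2 and 3 it measured 7.18, 6.89 and 6.71, and in mutants 1, 2 and 3 it measured 7.75, 7.84 and 8.09 (log2 expression). Every mutant embryo was above every control embryo, with a gap of 0.58 between the lowest mutant and the highest control. The group means were 6.93 ± 0.24 and 7.90 ± 0.18 (SD, n = 3 each), a 1.96-fold difference (log2 change 0.97, SE 0.13). The control mean of Gmnc lay at about the 30th percentile of probe set means (6.93), with controls 2 and 3 under it. Without detection calls it cannot be told whether that level was above background. Without control 3, which had the lowest value, the log2 change was 0.86. In whole lung, more cells expressing a gene and more RNA per cell cannot be told apart, and this holds for all genes here.

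Mcidas, the multicilin gene that acts downstream of Gmnc, differed little. It measured 8.74, 8.78 and 8.84 in the controls and 9.01, 8.77 and 8.97 in the mutants. Mutants 1 and 3 were above all controls, while mutant 2 lay among them. The means were 8.79 ± 0.05 and 8.92 ± 0.13 (log2 change 0.13, SE 0.07), and without control 3 the log2 change was 0.15. It was 0.08 without mutant 1 and 0.20 without mutant 2.

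Deup1, the scaffold of the deuterosome, showed the other large difference. Its control values were 6.34, 6.54 and 6.80, and its mutant values were 7.73, 7.21 and 7.45. The groups did not overlap, and the lowest mutant was 0.41 above the highest control. The means were 6.56 ± 0.23 and 7.46 ± 0.26, a 1.87-fold difference (log2 change 0.90, SE 0.15). Over all 6 arrays the mean of Deup1 was brighter than 31.2% of probe sets. Its control mean lay under the 30th percentile of probe set means (6.93), and it cannot be told whether that level was above background. Control 3 was the highest of the controls for Deup1 and the lowest for Gmnc, so the log2 change of Deup1 was larger without it, at 1.02.

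Ccno encodes cyclin O, which multiciliated cells need to amplify centrioles in the cytoplasm. It measured 7.89, 7.80 and 8.06 in controls and 8.21, 8.24 and 8.30 in mutants. Again all 3 mutants lay above all 3 controls, by a gap of 0.15. The means were 7.91 ± 0.13 and 8.25 ± 0.04, a 1.26-fold difference (log2 change 0.34, SE 0.07), or 0.41 on the log2 scale without control 3.

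Plk4, the kinase that starts centriole duplication in dividing and in multiciliated cells, did not separate the groups. It measured 11.33, 11.22 and 11.16 in controls and 11.23, 11.22 and 11.29 in mutants, so the mutants lay within the range of the controls. Its log2 change was 0.01 (SE 0.06), and -0.03 without control 3.

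Myb, a transcription factor that promotes the early multiciliated programme and also keeps blood progenitors, lay higher in mutants by a small margin. Its values were 8.94, 8.86 and 8.61 in controls and 9.17, 8.97 and 9.32 in mutants. The groups did not overlap, but mutant 2 was only 0.03 above control 1. The means were 8.80 ± 0.17 and 9.15 ± 0.18 (log2 change 0.35, SE 0.11), a 1.27-fold difference that came to 0.25 on the log2 scale without control 3. Of 14 blood genes, 0 passed the limma test (0 at an unadjusted p under 0.05) and 4 lay above 0, with a median log2 change of -0.05. Their summed linear signal ranged from 39346 to 41456 in controls and from 35105 to 43243 in mutants, so blood markers did not separate the groups. Their part in the Myb difference was not tested.

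Rfx2 and Rfx3 encode factors that bind X-box promoters of ciliary genes. Rfx2 measured 8.67, 8.72 and 8.72 in controls and 8.72, 8.69 and 8.68 in mutants (log2 change -0.01, SE 0.04), and the groups overlapped. Without control 3 the log2 change of Rfx2 was -0.005. Rfx3 measured 9.72, 9.61 and 9.57 in controls and 9.70, 9.82 and 9.75 in mutants (log2 change 0.12, SE 0.06). For Rfx3, mutant 1 lay below control 1, and without control 3 the log2 change was 0.09.

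Gmnn encodes geminin, which blocks relicensing of DNA by binding Cdt1 and is a relative of Gmnc and Mcidas. The dimmer of its probe sets measured 7.85, 7.79 and 7.63 in controls and 7.63, 7.80 and 7.71 in mutants (log2 change -0.04, SE 0.07). The brighter measured 8.62, 8.59 and 8.58 in controls and 8.58, 8.71 and 8.59 in mutants (log2 change 0.03, SE 0.05). The groups overlapped for both probe sets, and without control 3 the log2 changes were -0.11 and 0.02.

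**Figure D1:**
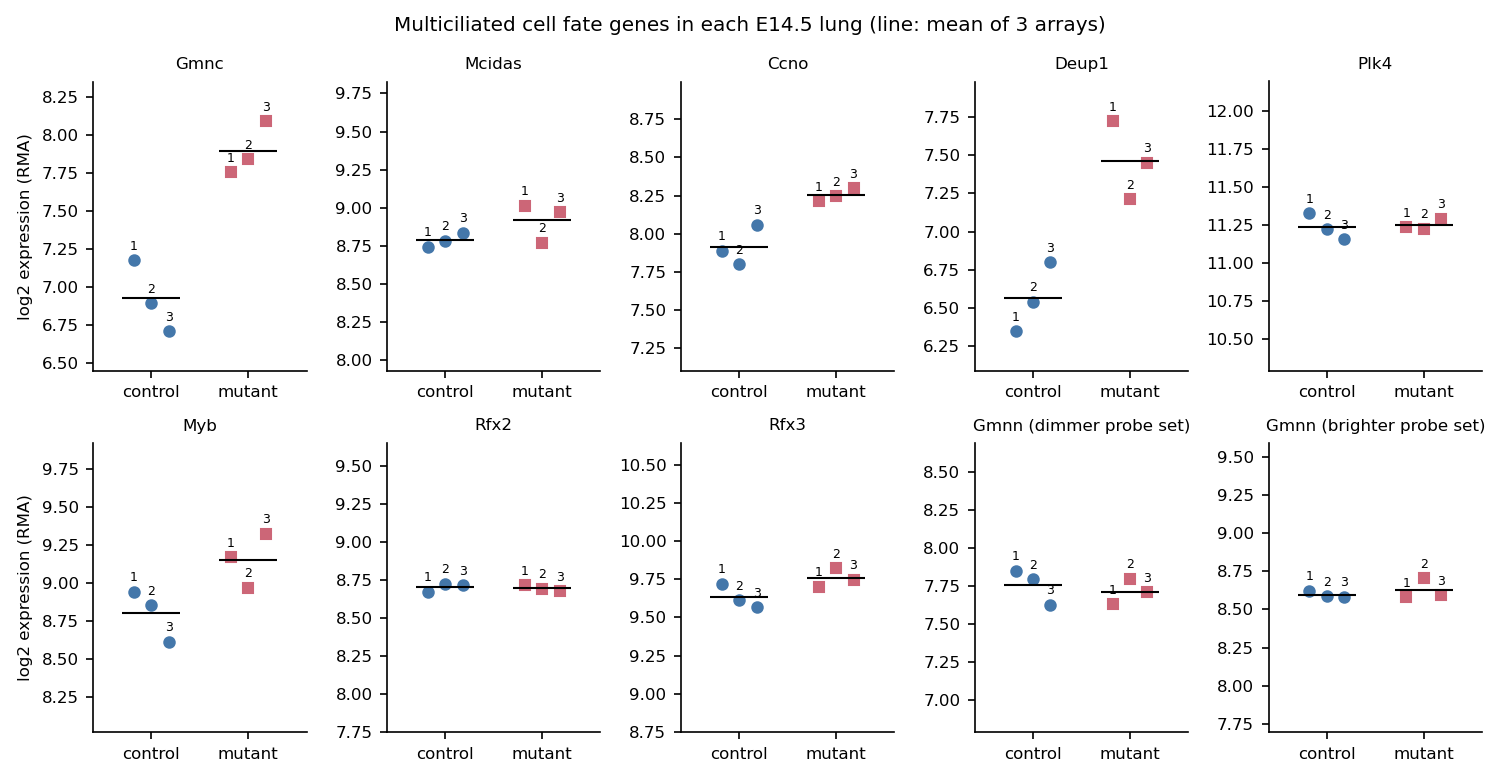
Each panel plots the log2 expression (RMA) of 1 probe set in the 3 control (circles) and 3 mutant (squares) lungs, numbered by replicate, with a line at the group mean and the same span on every vertical axis. Gmnc and Deup1 separate widely, Ccno and Myb narrowly, and the other panels overlap.

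Counted together, 2 of the 9 genes, Gmnc and Deup1, were past a limma adjusted p of 0.05, both higher, against 0.774% of all probe sets in either direction, 0.514% higher and 0.26% lower. Without control 3, 1 of the 9, Ccno, was past it, against 0.354% of all probe sets. Of the 6 fits that leave out 1 array, Gmnc was past it in 1, without control 1, and Deup1 in 0. All mutant values were above all control values for 4 of the 10 member probe sets, against 7.83% of all probe sets, and all were below for 0, against 10.1%. Since the genes were picked with this comparison in view, nothing is read from these counts. Of the 10 probe sets 8 had a log2 change above 0, with a median of 0.13, where the median over all probe sets was -0.02 and 41.6% lay above 0. In the authors' deposited table, Gmnc had a q of 0.897%, Deup1 of 1.09% and Ccno of 4.67%, while Myb had a q of 16.4% and the other members 49.3% to 66.3%. A q under 5% together with a higher level in mutants was reached by 1.05% of all probe sets in the authors' deposited table. These q values come from the same arrays in which the genes were picked, so they add no separate support.

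**Figure D2:**
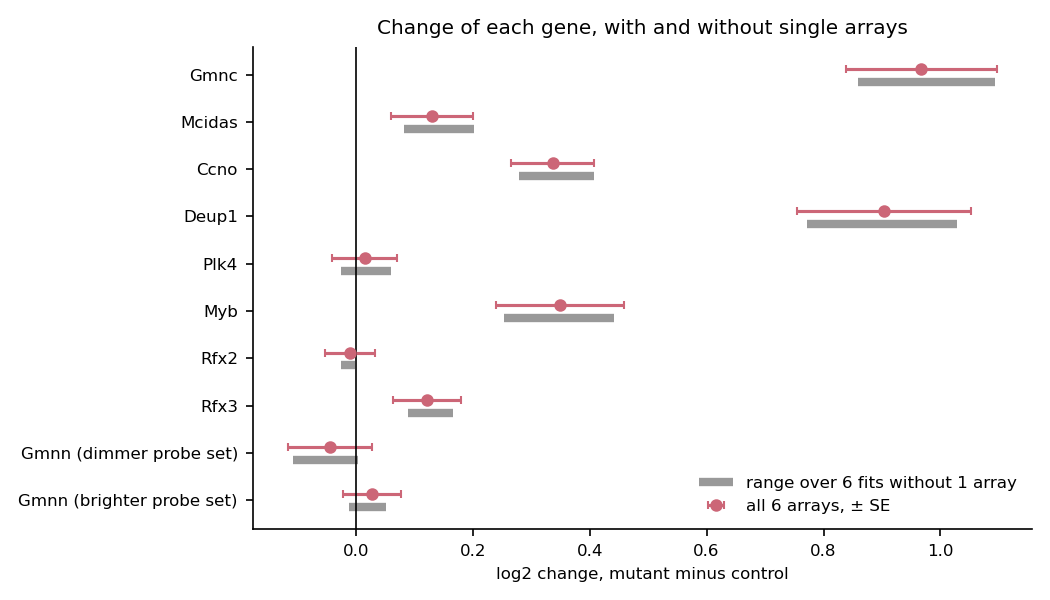
Points give the log2 change of mutant minus control with its SE for each probe set over all 6 arrays, and grey bars the range of that change over the 6 fits that each leave out 1 array. The bars of Gmnc (0.86 to 1.09), Deup1 (0.77 to 1.03), Ccno (0.28 to 0.41) and Myb (0.25 to 0.44) lie to the right of 0, and those of Plk4 and both Gmnn probe sets cross it.

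The members also differed in how much embryos of the same group varied, a measure that does not use the difference between groups. The residual SD was 0.21 for Gmnc, larger than that of 96.4% of probe sets of similar brightness (within 0.25 on the log2 scale). For Deup1 it was 0.24, larger than 98.1%, and for Myb 0.17, larger than 95.4%. Rfx2 was at the other end, with an SD of 0.02, larger than 2.0% of its peers. The remaining member probe sets had SDs of 0.05 to 0.10, larger than 19.2% to 67.4% of their peers. The deviations of Gmnc and Deup1 did not run together: control 1 was 0.25 above its group mean for Gmnc and at -0.22 for Deup1, and mutant 1 was at -0.14 for Gmnc and 0.26 above for Deup1. Myb was highest in control 1 and mutant 3, as Gmnc was.

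Probe sets whose 6 values moved most like those of Gmnc and Deup1 were found by the Euclidean distance of log2 values after subtracting each probe set's mean, over 6 arrays. Only probe sets with a gene symbol were searched. Gm, Rik and LOC names, small RNA genes and some other gene classes were left out. For Gmnc the nearest were the potassium channel Kcnj13 (distance 0.23, log2 change 1.08), the adhesion protein Emb (0.24, log2 change 0.90), the protocadherin Pcdh10 (0.27, log2 change 0.81), the receptor ligand Apela (0.34, log2 change 0.99) and the metalloprotease Adam28 (0.34, log2 change 0.76). For Deup1 4 of the 5 nearest are given, the axonemal protein Cfap206 (0.41, log2 change 0.92), Fam183b, known from ciliated cells (0.47, log2 change 0.61), AW112010 (0.47, log2 change 0.75) and the Wnt antagonist Dkk1 (0.54, log2 change 0.71). Cfap206 measured 6.49, 6.48 and 6.44 in controls and 7.73, 6.98 and 7.46 in mutants, so that, as for Deup1, mutant 1 was the highest and mutant 2 the lowest mutant. Fam183b had the same order of mutants, with 7.52, 7.17 and 7.37. Gmnc and Deup1 themselves were 0.82 apart. Among all probe sets, without that restriction, Deup1 ranked 273 from Gmnc and Gmnc ranked 108 from Deup1. These genes were selected for their likeness in the same arrays, so their differences carry no test.

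**Figure D3:**
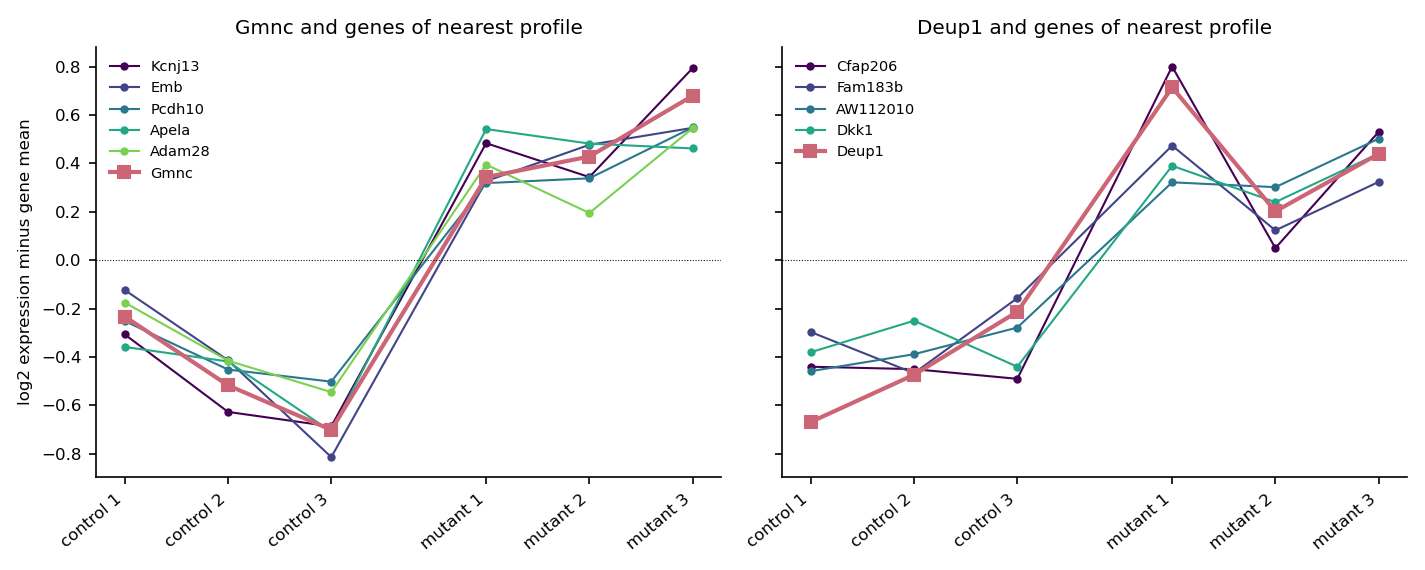
Lines follow the log2 expression minus each gene's mean over the 6 arrays. Thick lines are Gmnc (left) and Deup1 (right). Thin lines are the 5 genes nearest to Gmnc and 4 of the 5 nearest to Deup1, among the genes searched. Before centring, Gmnc measured 7.18 in control 1 and 6.71 in control 3, while Deup1 measured 6.34 and 6.80.

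Genes that work with these members were read in 6 lists. Over the 6 lists of 97 measured genes, 1 rose, 0 fell and 96 did not pass (limma adjusted p under 0.05). At an unadjusted p under 0.05 there were 5 higher and 4 lower, where 11.8% of all probe sets reached it, and the median log2 change was 0.001. The lists hold no member, and they were drawn up with earlier results of these data known.

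Of 9 transcriptional partners 0 passed the limma test (0 at an unadjusted p under 0.05), with a median log2 change of 0.04. E2f4 and E2f5, the factors that Gmnc and Mcidas bind, had log2 changes of -0.02 and -0.12 (adjusted p by limma = 0.923 and 0.506), and their dimer partner Tfdp1 one of -0.09 (0.527). Foxj1, the regulator of motile cilia, measured 7.15, 7.29 and 7.37 in controls and 7.47, 7.32 and 7.46 in mutants (log2 change 0.14, SE 0.07, adjusted p by limma = 0.477). Mutant 2 fell within the range of the controls for Foxj1, and without control 1 its log2 change was 0.084. Trp73, a p53 relative that acts upstream of Foxj1, had a log2 change of 0.12 (adjusted p by limma = 0.446), and Foxn4, which acts in multiciliated cells of the frog, one of 0.04 (0.813).

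Among 8 relatives of Rfx2, Rfx3 and Myb, 1 rose and 7 did not pass. The gene that rose was Rfx6, a factor of the endocrine pancreas and gut, from 6.10, 6.38 and 6.26 in controls to 6.76, 6.71 and 6.84 in mutants. This was a 1.43-fold rise (log2 change 0.52, SE 0.08, adjusted p by limma = 0.0301), without overlap of the groups. Its call ended without control 2 (adjusted p = 0.0648), control 3 (0.0950), mutant 1 (0.111), mutant 2 (0.0886) or mutant 3 (0.117), while the log2 change over the 6 fits that leave out 1 array ran from 0.447 to 0.585. Rfx5 had a log2 change of 0.23 (adjusted p by limma = 0.399), which was 0.132 without control 3. Rfx7 had a log2 change of 0.10 (adjusted p by limma = 0.527), Rfx1 one of 0.06 (0.748) and Rfx4 one of 0.002 (0.992). The Myb relatives Mybl1 and Mybl2 had log2 changes of 0.05 (0.796) and -0.10 (0.450).

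Of 31 genes of centriole assembly and the deuterosome, 0 passed the limma test (2 at an unadjusted p under 0.05), 19 lay above 0 and the median log2 change was 0.01. Cep63, the paralog of Deup1 that serves the parent centriole, had 2 probe sets that disagreed. The brighter had a log2 change of -0.07 (SE 0.13, adjusted p by limma = 0.861) and the dimmer, at 7.90, 7.71 and 7.72 in controls and 8.01, 8.28 and 8.07 in mutants, one of 0.34 (SE 0.08, 0.180). Cep152, which Deup1 and Cep63 recruit, had a log2 change of -0.02 (adjusted p by limma = 0.910). The procentriole components Sass6 and Stil had log2 changes of 0.01 (0.936) and 0.15 (0.313). Tedc1 and Spice1 had 0.09 (0.508) and 0.11 (0.536).

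Of 16 genes of centriole maturation and its appendages 0 passed the limma test (2 at an unadjusted p under 0.05, both lower), with a median log2 change of -0.002. Those with the smallest p were Cep128 at -0.14 (adjusted p by limma = 0.358) and the subdistal appendage protein Nin at -0.12 (0.367), with the distal appendage proteins Cep164 at -0.07 (0.555) and Fbf1 at 0.10 (0.587).

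**Figure D4:**
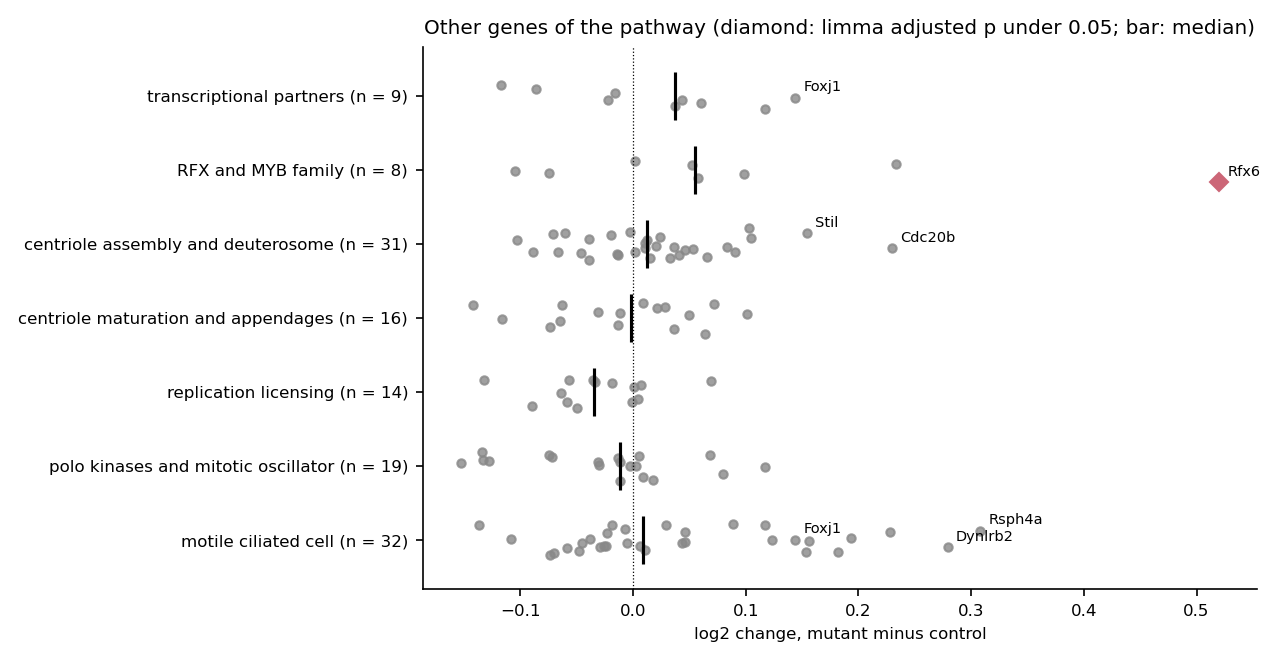
Each point is the log2 change of mutant minus control of 1 gene in 6 lists of pathway genes and in the list of motile ciliated cell genes, with the number measured beside each name, a bar at the list's median and a diamond where limma's adjusted p was under 0.05. Rfx6, at 0.52, is the diamond, and the medians lie between -0.04 and 0.06.

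Around Gmnn, 0 of 14 replication licensing genes passed the limma test (1 at an unadjusted p under 0.05), and 4 of the 14 lay above 0. Cdt1, the target of geminin, had a log2 change of -0.02 (adjusted p by limma = 0.879). The helicase subunits Mcm3 and Mcm2 had -0.13 (0.268) and -0.09 (0.485), and the kinase Cdc7 and helicase subunit Mcm6 had 0.07 (0.631) and -0.06 (0.635). Of 19 polo kinase and mitotic oscillator genes, 0 passed the limma test (2 at an unadjusted p under 0.05). Multiciliated cells use some of these genes without dividing. Plk1 had a log2 change of -0.01 (adjusted p by limma = 0.934), Ccne1 one of -0.15 (0.338), Ccna1 one of 0.12 (0.398), Ccnb1 one of -0.13 (0.425) and the cell cycle inhibitor Cdkn1c one of -0.13 (0.428).

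Ccno and Mcidas are neighbours on chromosome 13, and the next gene, Cdc20b, takes part in centriole release from deuterosomes and hosts the miR-449 genes. Cdc20b measured 7.27, 7.27 and 7.34 in controls and 7.71, 7.46 and 7.40 in mutants. The groups did not overlap, by 0.06, and the log2 change was 0.23 (SE 0.08, adjusted p by limma = 0.340), so the 3 adjacent genes had log2 changes of 0.34, 0.13 and 0.23. Without mutant 1 the log2 change of Cdc20b was 0.135 and that of Mcidas 0.082. On either side, Dhx29 had a log2 change of -0.05 (adjusted p by limma = 0.724) and Gpx8 one of 0.08 (0.517). The genes next to Gmnc on chromosome 16, Il1rap and Ostn, had log2 changes of -0.08 (0.663) and 0.05 (0.667). Those next to Deup1 on chromosome 9, Smco4 and Slc36a4, had 0.01 (0.935) and -0.14 (0.404). Of 48 protein-coding neighbours within 3 measured genes of a member, 0 passed the limma test (6 at an unadjusted p under 0.05, against 11.8% of all probe sets). The log2 changes of these neighbours ran from -0.25 to 0.23 with a median of -0.03.

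**Figure D5:**
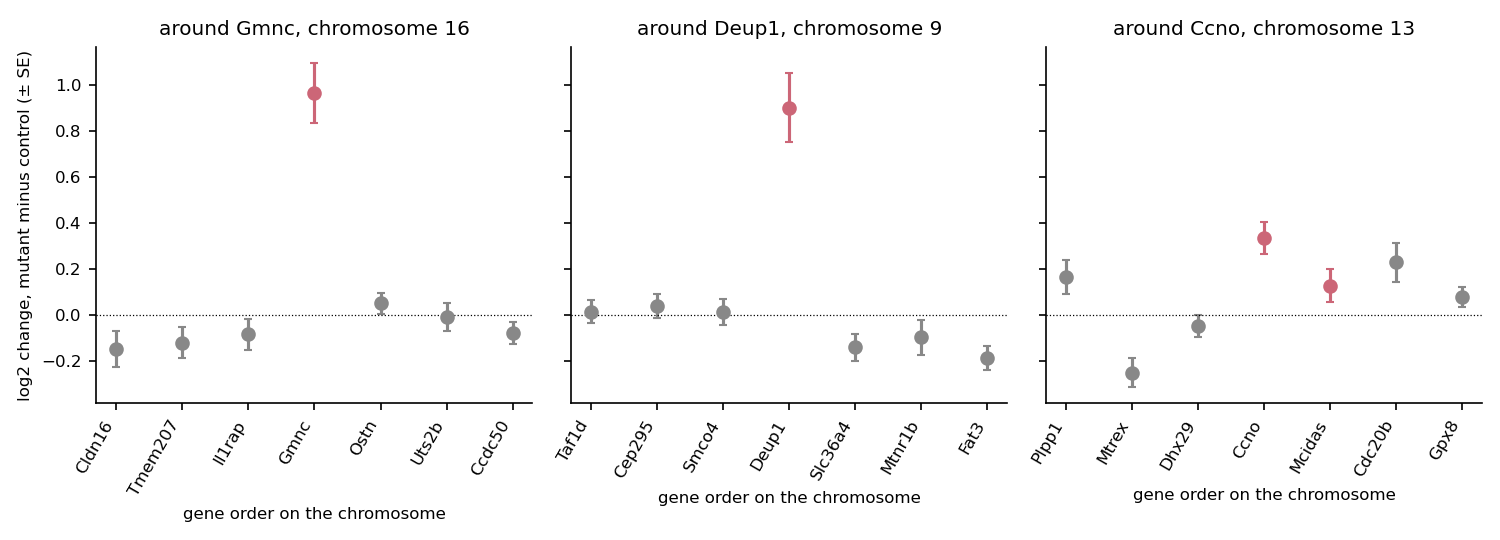
Log2 changes of mutant minus control (± SE) for the measured genes around Gmnc, Deup1 and Ccno in their order on the chromosome, members in red. Gmnc (0.97) and Deup1 (0.90) stand above neighbours that lie between -0.19 and 0.05, and the run Ccno, Mcidas and Cdc20b lies at 0.34, 0.13 and 0.23.

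Genes of the motile cilium itself, which follow these members in differentiation, formed a list of 32 genes. Of these 0 passed the limma test, 17 lay above 0 and the median log2 change was 0.01. At an unadjusted p under 0.05 there were 4, all higher, where 11.8% of all probe sets reached it in either direction. The radial spoke gene Rsph4a had a log2 change of 0.31 (adjusted p by limma = 0.285) and Dynlrb2, a light chain of dynein, one of 0.28 (0.151). Dynlrb2 passed with quantile normalization (log2 change 0.317, adjusted p by limma = 0.0403), cyclic loess (0.322, 0.0390) and array weights (0.306, 0.0109). The summed linear signal of the list was 4536 to 4857 in controls and 4597 to 4948 in mutants, so the groups overlapped. Of 10 probe sets of Spef2, 1 that is not the brightest passed (log2 change 0.31, adjusted p by limma = 0.0474). That probe set was dim, with a mean of 5.35, brighter than 10.8% of all probe sets. The brightest had a log2 change of -0.07 (adjusted p by limma = 0.631).

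Markers of other cell types were read in the same arrays. Of 12 lung epithelium genes 0 passed the limma test (2 at an unadjusted p under 0.05), with a median log2 change of 0.05 and summed signals of 32596 to 34904 in controls and 35491 to 36980 in mutants, which did not overlap. Without the surfactant gene Sftpc (log2 change 0.38, adjusted p by limma = 0.212), the sums of the other 11 genes were 26078 to 27536 and 26930 to 28208, which overlapped. Of 8 neuroendocrine genes 1 fell (4 at an unadjusted p under 0.05, all lower) and 0 lay above 0. Their summed signals were 2129 to 2360 in controls and 1531 to 1587 in mutants, which did not overlap. Without the gene of the largest change, the sums of the other 7 were 1087 to 1195 and 935 to 1000, which did not overlap either. Of 7 oesophagus and basal genes 0 passed the limma test (4 at an unadjusted p under 0.05, all lower) and 0 lay above 0. Their summed signals were 1087 to 1136 in controls and 1006 to 1040 in mutants, which did not overlap. Without the gene of the largest change the sums were 964 to 1009 and 896 to 927. Of all probe sets, 11.8% reached an unadjusted p under 0.05. Of 7 nerve and glia genes 0 passed the limma test (1 at an unadjusted p under 0.05), with summed signals of 1159 to 1329 and 1136 to 1186, which overlapped. The part of these cell types in the differences of Gmnc and Deup1 was not tested.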

How the data were processed

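The authors deposited a log2 value for each probe set and array, from RMA (background correction, normalization between arrays and summary per probe set) per the submitters' processing notes. A further deposited table, identical in its 6 array columns for all 28815 probe sets, adds the authors' comparison: per the file headers it holds a p-value before adjustment, a q-value as a percent, a signed fold and a difference score. Not given in the sources used here are the array type, the genome build and the authors' test. Probe sets were named from that table, updated through RefSeq (GRCm38.p6), and 25528 of 28815 had a symbol. Replicates are separate embryos per the design text.

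Using limma 3.58.1 under R 4.3.3, mutant minus control was fitted to each probe set (2-sided moderated test after lmFit and eBayes, Benjamini-Hochberg over all 28815 probe sets, threshold 0.05), and the fit was tested on simulated data. In the simulated data the fit recovered 31% of log2 changes of 0.3 and 96% of those of 1.0, in either direction, with 7 false calls. The simulated errors were independent between probe sets and arrays. These shares therefore do not show how firm calls are in the real arrays. The 3 arrays per group limit the precision. Lists use 1 probe set per gene, the brightest. Genes named are all members, fixed partners, up to 4 per list with the smallest p, adjacent genes and nearest profiles. Nkx2-1, Sntn, Tppp3, Sftpc, Rsph4a, Dynlrb2 and the Spef2 probe set were named after their values were seen. Members and lists were chosen with earlier results of these data known. A neuroendocrine gene and a gene near Deup1 in profile are not reported here. Alternatives are a replicate block, a trended robust prior, array weights, 3 other normalizations, 2 filters on dim probe sets, a threshold of 0.1, 1 probe set per symbol and leaving out each array. Marker sums without the gene of the largest change were added after seeing the data. Promoter windows came from RefSeq and were searched for a fixed set of motif letters. Figures used matplotlib 3.10.9.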

Additional observations from a re-analysis of the deposited data

How the results depend on the processing

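None of the alternatives changed the sign of Gmnc, Deup1, Ccno, Myb, Mcidas or Rfx3. The count of members past the threshold was 2 and became 0 with the replicate block or with the filter at the median brightness, which drops Gmnc, Deup1 and Ccno, and ran from 0 to 1 in the fits without 1 array. With array weights, whose estimate stopped short of its tolerance, it was 3 and the log2 change of Ccno was 0.44. The count of listed pathway genes, 1, became 0 with the replicate block and with either filter on dim probe sets, which drop Rfx6, and 3 with array weights (Rfx6, Stil and Mcm3), and ran from 0 to 1 without 1 array. The count over all probe sets was 223, and became 7 with the replicate block, 1748 with array weights and 360 at a threshold of 0.1. Without 1 array it ran from 11 to 152: the controls left out in turn gave 152, 18 and 102, and the mutants 136, 11 and 147. The causes were not tested. Same-numbered arrays did not deviate together (correlations of -0.19, 0.04 and -0.18). With 3 arrays per group this cannot show whether embryos were paired, and the labels do not say so.

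Log2 changes close to 0 changed sign without 1 array. They ran from -0.058 to 0.013 for E2f4, -0.019 to 0.095 for Foxn4, -0.187 to 0.047 for Cep63, -0.063 to 0.029 for Cep152, -0.030 to 0.056 for Sass6, -0.031 to 0.013 for Plk1, -0.020 to 0.091 for Mybl1, -0.004 to 0.111 for Rfx1 and -0.054 to 0.059 for Rfx4. With array weights Cep152 was at 0.012, Sass6 at -0.017, Mybl1 at -0.003 and Rfx4 at -0.105, and with cyclic loess Cep152 was at 0.007. Leaving out 1 array also moved other uncalled log2 changes: Trp73 to 0.070 without control 1, Tfdp1 to -0.053 without control 1, E2f5 to -0.077 without mutant 1, Spice1 to 0.044 without control 3, Ccnb1 to -0.082 and Cdkn1c to -0.088 without mutant 2, Rfx7 to 0.148 and 0.062 and Fbf1 to 0.045 and 0.154 without mutants 1 and 2. Foxp4 did not pass with the replicate block (adjusted p = 0.130). With 3 arrays per group and no detection values, small changes can be missed, those of dim genes included.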
